A study of Mus musculus with 6 samples.

Results

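The genes of the cytosolic ribosomal proteins and their named pseudogenes were followed in bone marrow macrophages of RKIP WT and RKIP KO mice. Members were the rows of the deposited gene table whose symbol starts with Rpl or Rps and a digit, or with Rplp0, Rplp1, Rplp2 or Rpsa, leaving out the Rps6k kinases. The rule found 309 of 27458 rows. Of these, 77 were standard ribosomal protein genes (46 of the large and 31 of the small subunit), 217 were pseudogenes whose name gives the parent and the ending -ps, and 14 were paralogs and retrocopies. The last row was Rps19bp1, which codes for a protein that binds Rps19 and is no ribosomal protein. A mean of at least 1 FPKM (fragments scaled by gene length and library total) over the 6 libraries was reached by 77 standard genes, 96 named pseudogenes, 12 paralogs and retrocopies and Rps19bp1, and these were tested. The level of Rps19bp1 was 8.24 ± 1.39 FPKM in WT and 7.20 ± 0.78 FPKM in KO (SD, n = 3 each) and did not pass the threshold (edgeR, adjusted p = 0.185).

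Primary macrophages were derived from the bone marrow of RKIP+/+ mice (WT, 3 libraries) and RKIP-/- mice (KO, 3 libraries), and all were treated with macrophage colony-stimulating factor (M-CSF). RKIP, the Raf kinase inhibitor protein, is encoded by Pebp1. The study asked how RKIP affects macrophage differentiation. The labels give neither the age of the mice nor the design of the knockout allele, and do not say that libraries came from separate animals, so p-values measure the spread between libraries, which may be technical. WT libraries held from 53188659 to 55255365 estimated counts and KO libraries from 63607276 to 70059042, so every KO library was deeper. Pebp1 had 4311, 3560 and 4138 counts in WT and 0 in each KO library. The 7 macrophage markers, among them Csf1r and Lyz2, summed to between 20401 and 21897 FPKM in WT and between 18416 and 18674 in KO, with 3 of them lower, 2 higher and 2 not past the threshold. All 7 tested of 9 neutrophil markers fell, and the list summed to between 67.8 and 154 FPKM in WT and between 2.98 and 3.29 in KO. The 4 stromal markers summed to between 848 and 947 FPKM in WT and to between 829 and 947 FPKM in KO. B cell and erythroid markers summed to at most 0.982 FPKM in any library, and of the 4 T and NK cell markers only 1 was in the table, at no more than 0.0196 FPKM.

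A ribosome holds 1 copy of nearly every ribosomal protein, built around ribosomal RNA into a small subunit, which reads the mRNA, and a large subunit, which joins amino acids. Ribosomal protein mRNAs are short, abundant and typically begin with a run of pyrimidines (a 5′ terminal oligopyrimidine motif), through which mTOR signalling sets their translation. Being abundant in the germ line, they have often been copied back into the genome as intronless processed pseudogenes. A short read from such a copy can be hard to tell from a read of its parent.

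Standard ribosomal protein mRNAs were lower in KO macrophages, by a small amount for most genes. Taken singly, the short genes Rps29, Rps28, Rpl38 and Rpl41 and the longer genes Rplp0 and Rps19 were over 2-fold lower. Of the 77 genes, 67 fell and 0 rose (edgeR quasi-likelihood test, adjusted p under 0.05), while of all 11636 tested genes 19.4% were lower and 20.3% higher. No gene rose at an unadjusted p under 0.05 either, and by limma and DESeq2 0 rose as well. The median log2 fold change of the 77 genes was -0.27, a fall of 1.21-fold, against -0.01 for all tested genes. In 61 genes every KO library lay below every WT library in FPKM, against 19.1% of all tested genes. The large subunit (41 of 46 fell, median log2 fold change -0.27) and the small subunit (26 of 31 fell, -0.28) gave nearly the same values. This direction depended on how the length of the transcripts was treated: when each library's trend over the length and GC content of the gene's principal transcript was taken out, 21 genes were lower and 21 higher (14.4% and 16.4% of all tested genes), and the median was 0.01. With the length of the longest transcript, 28 were lower and 11 higher (14.8% and 16.6% of all tested genes), with a median of -0.08. Both corrections were fitted on all tested genes, the members included.

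As a share of all estimated counts, the 77 genes took 2.39%, 2.21% and 2.21% in WT, in order of replicate number, and 1.85%, 1.77% and 1.79% in KO. The groups did not overlap (2.27% ± 0.10 against 1.80% ± 0.04, SD, n = 3 each, two-sided exact permutation test, p = 0.10, the smallest that 3 against 3 allows). WT library 1 had the highest share and also the lowest neutrophil marker sum, 67.8 FPKM. The fall of the neutrophil markers moved with the genotype as the ribosomal share did, and its part in that share was not tested. In such bulk RNA, fewer cells of a type and less RNA per cell cannot be told apart.

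**Figure D1:**
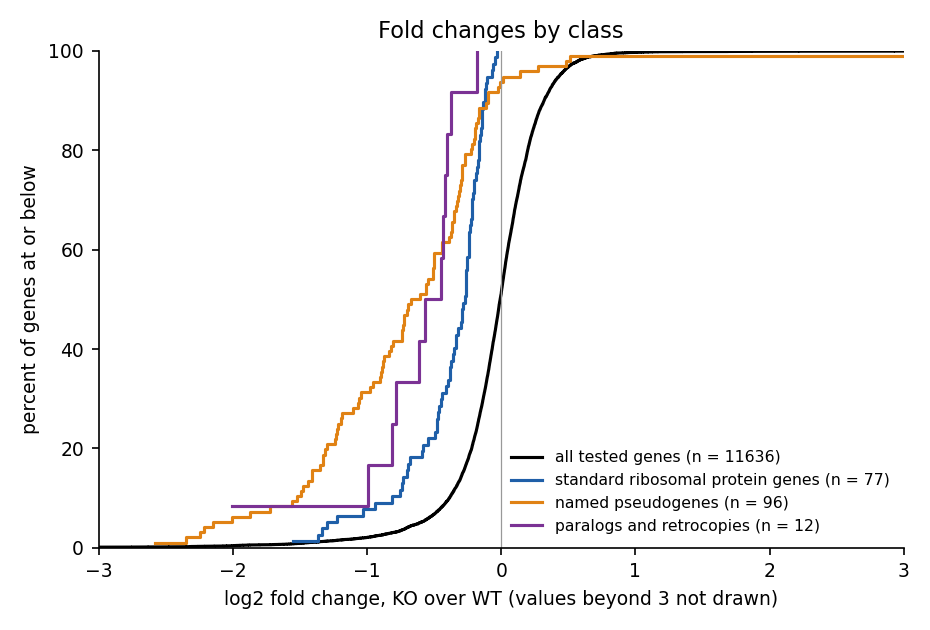
Cumulative percent of genes (y axis) at or below each log2 fold change, KO over WT (x axis), for all tested genes and the 3 classes of members. The curve of the 77 standard genes lies entirely below 0, with a median of -0.27, and the curve of the named pseudogenes starts at -2.58, with Rps19-ps6, at 3.44, beyond the axis.

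Rps29 and Rps28, both short proteins of the small subunit, were both over 2-fold lower. Rps29 (chr12:69157722-69159186) stood at 128, 115 and 120.3 FPKM in WT and at 58.7, 44.7 and 42.6 FPKM in KO. KO library 1 was the highest of its group and still far below every WT library. The fall was 2.58-fold (log2 fold change -1.37 ± 0.10, SE, edgeR, adjusted p = 3.57e-06). Rps28 (chr17:33819027-33824562) went from 37.4, 34.6 and 36.2 FPKM to 17.4, 15.6 and 14.9 FPKM, a tight spread in both groups. It was 2.34-fold lower (log2 fold change -1.23 ± 0.07, adjusted p = 3.88e-07).

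Rpl41, the shortest ribosomal protein and part of a bridge between the subunits, and Rpl38, a large subunit protein known for its role in the translation of Hox mRNAs, fell as well. Rpl41 had 192, 202 and 205 FPKM in WT and 134, 69.5 and 100.9 FPKM in KO, so that KO libraries differed among themselves far more than WT libraries did. Its log2 fold change was -1.03 ± 0.17 (edgeR, adjusted p = 0.000648). Rpl38 had 68.3, 76.4 and 74.7 FPKM in WT and 36.6, 16.6 and 37.1 FPKM in KO, with KO library 2 far below the other KO libraries. Its log2 fold change was -1.33 ± 0.22 (adjusted p = 0.000698).

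The stalk of the large subunit, made of Rplp0, Rplp1 and Rplp2, recruits the elongation factors. Rplp1 stood at 537, 483 and 477 FPKM in WT and at 367, 334 and 330.0 FPKM in KO (1.51-fold lower, log2 fold change -0.59 ± 0.06, edgeR, adjusted p = 2.69e-05). Rplp2 stood at 80.4, 74.0 and 75.5 FPKM in WT and at 62.4, 52.9 and 54.3 FPKM in KO (1.41-fold lower, log2 fold change -0.49 ± 0.07, adjusted p = 0.000176). In both genes every KO library lay below every WT library, and both falls passed the threshold after the principal transcript correction at a smaller size (log2 fold change -0.17 and -0.20, adjusted p = 0.0083 and 0.0107). Rpsa, a small subunit protein also described as a laminin receptor, had 305, 290.4 and 288 FPKM in WT and 265, 285 and 273 FPKM in KO, close but without overlap (log2 fold change -0.16 ± 0.04, adjusted p = 0.00797). After the principal transcript correction it stood at 0.01 (adjusted p = 0.880), and its call ended in limma too (adjusted p = 0.0946).

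Rplp0 alone fell 2.46-fold, and its copies rose. The gene (chr5:115559467-115563727) had 71436, 65150 and 63912 estimated counts in WT and 32677, 33507 and 32908 in KO (log2 fold change -1.30 ± 0.05, edgeR, adjusted p = 1.28e-08). Among the 4 unnamed processed pseudogenes of Rplp0, which are no members but match it in sequence, 3 went the other way. Gm8730 (chr8:102864845-102865798) went from 3477, 3136 and 3037 counts to 28600, 29764 and 30758, a 7.60-fold rise (adjusted p = 1.28e-11). Gm9625 (chr13:67810246-67811200) went from 332, 296 and 268 counts to 4336, 4662 and 5210, and Gm14165 (chr2:152353615-152354566) from 17, 22 and 12 counts to 497, 541 and 502. The fourth, Gm6278 (chr16:85644252-85645023), had 827, 876 and 713 counts in WT and 846, 846 and 712 in KO and did not pass the threshold. The named copy, Rplp0-ps1, had 8 to 15 counts in WT and 3 to 13 in KO.

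The copies that rose are close in sequence to Rplp0, and 40 coding bases are shown because they hold differences that the rising copies share. Positions count from 1 at the first base of the start codon, and capitals mark bases that differ from Rplp0 (GENCODE M21 transcripts, GRCm38, positions 371 to 410).
Rplp0: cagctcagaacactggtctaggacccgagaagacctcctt
Gm8730: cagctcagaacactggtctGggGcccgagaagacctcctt
Gm9625: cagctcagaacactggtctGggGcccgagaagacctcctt
Gm14165: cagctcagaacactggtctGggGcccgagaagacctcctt
Gm6278: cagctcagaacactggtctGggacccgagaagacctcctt
Over the 951 coding bases, Gm8730 differed from Rplp0 at 12 positions, Gm9625 at 25 and Gm14165 at 27. All 3 shared the 7 differences T72C, G138C, T192C, A390G, A393G, A696G and A784G. In the window shown Gm6278 carried A390G and not A393G. Over all 951 coding bases Gm6278 was far less alike, with 261 differences from Rplp0, and Rplp0-ps1 had 58. Rplp0-ps1, nearly without counts in both genotypes, carried all 7.

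Rps19, a small subunit protein whose human gene is mutated in Diamond-Blackfan anaemia, showed the same opposition with a named pseudogene. Rps19 (chr7:24884371-24889806) had 8848, 7780 and 7716 counts in WT and 3046, 2729 and 4367 in KO, the largest fall of any standard gene (2.93-fold, log2 fold change -1.55 ± 0.12, edgeR, adjusted p = 3.95e-06). Rps19-ps6 (chr12:110898114-110898551) had 361, 247 and 360 counts in WT and 4327, 4603 and 3847 in KO, 10.9-fold higher (log2 fold change 3.44 ± 0.14, adjusted p = 2.14e-08). Within KO, library 3 had the highest count on Rps19 and the lowest on Rps19-ps6. Coding positions 361 to 400 are shown, with capitals marking bases that differ from Rps19, because 3 of the 5 differences of Rps19-ps6 lie there.
Rps19: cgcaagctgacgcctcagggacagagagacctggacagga
Rps19-ps6: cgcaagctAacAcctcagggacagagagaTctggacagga
Rps19-ps3: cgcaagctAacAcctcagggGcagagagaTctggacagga
Over the 435 coding bases Rps19-ps6 differed by C6T, T273C, G369A, G372A and C390T. Rps19-ps3, which carries at least the last 3 among its 26 differences from Rps19, was lower in KO (log2 fold change -0.98). Reads of a parent that match its copy better, and reads made by the copy itself, cannot be told apart in these counts, so the values of Rplp0, Rps19 and these copies taken singly are uncertain.

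Summing the parents with their copies removed most of the fall of Rplp0 and Rps19 but left a smaller one. A sum was formed for each of the 77 standard genes with its 217 named pseudogenes in all, 520 unnamed copies matched by sequence and 6 paralogs of near-identical sequence. Rplp0 with its copies had 1364, 1274 and 1268 CPM (counts scaled to a common library total) in WT and 1070, 1025 and 1010 in KO, a 1.26-fold fall (log2 fold change -0.33 ± 0.04, edgeR, adjusted p = 7.9e-05). The copies held from 5.94% to 6.25% of these counts in WT and from 51.2% to 53.1% in KO. Rps19 with its copies had 172, 152 and 157 CPM in WT and 123, 113 and 122 CPM in KO (1.35-fold lower, log2 fold change -0.43 ± 0.05, adjusted p = 6.08e-05). Here the copies held from 5.95% to 8.45% in WT and from 48.4% to 64.2% in KO. Rpl38 was the only other family whose copies shifted by over 10 percentage points between genotype means, from 18.7% to 35.7%, and without KO library 2 the KO mean was 23.5%, a shift of under 10 points.

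**Figure D2:**
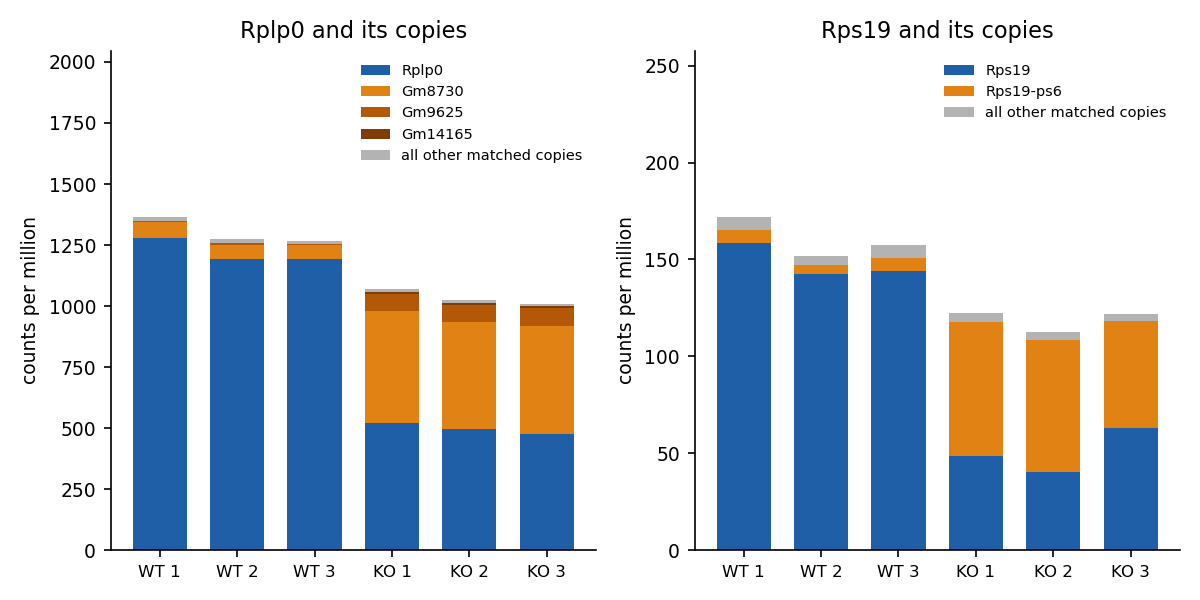
CPM (y axis, from 0) of Rplp0 (left) and Rps19 (right) and of their matched copies, stacked for each library. Whole stacks are 1.26-fold and 1.35-fold lower in KO, while the part counted on the parent is 2.46-fold lower for Rplp0 and 2.93-fold lower for Rps19.

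As families, 72 of the 77 ribosomal proteins fell and 0 rose, against 18.7% lower and 20.6% higher among the 11386 rows of that fit. The median log2 fold change was -0.30, and in 75 families every KO library lay below every WT library. Rpl26, Rpl29, Rpl7a, Rps26 and Rps27a passed the threshold as families and not as parents alone. Among the families that did not pass in either form were Rpl5, which binds 5S RNA, Rpl7, Rps14 and Rps4x, the X-linked Rps4 gene. With the principal transcript correction 29 families were lower and 8 higher (14.6% and 15.6% of all rows), with a median of -0.05. The families lower under that correction were led by Rps29 (2.08-fold), Rps28 (1.89-fold), Rpl38 (1.60-fold) and Rpl41 (1.54-fold). The 8 higher ones included Rps14 (log2 fold change 0.26), Rpl26, Rps4x, Rpl10, Rpl10a, Rps9 and Rpl14 (0.09). All 29 families that remained lower had also fallen as parents without it.

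**Figure D3:**
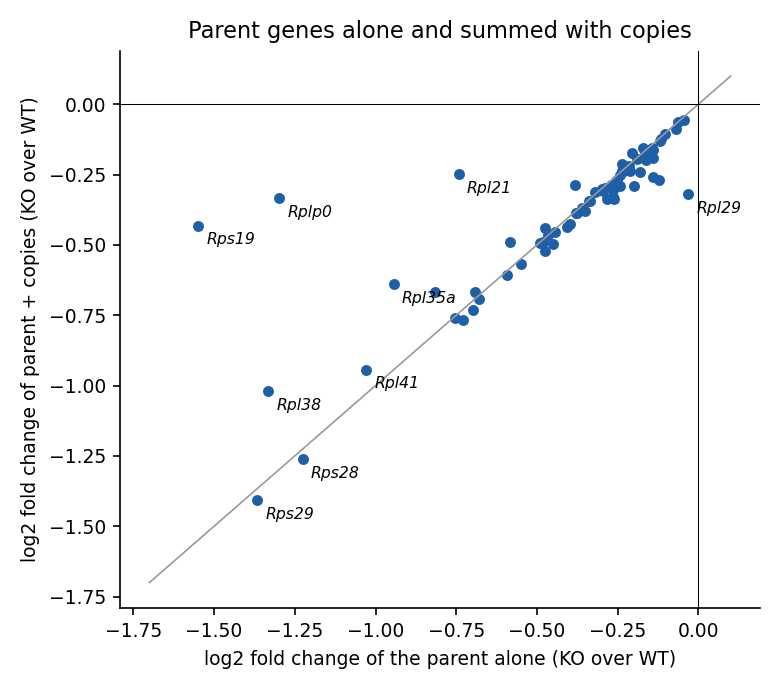
Log2 fold change of each parent gene alone (x axis) and of the parent summed with its copies (y axis), KO over WT, with the line of equal values. Most of the 77 points lie on the line, and Rplp0, Rps19 and Rpl21 lie above it, at -0.33, -0.43 and -0.25 as families.

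The size of the fall followed the length of the protein. The 6 families with a coding length of up to 250 bases (75 to 249) had a median log2 fold change of -0.98, and the 19 of over 250 and up to 400 bases had -0.49. The 30 of up to 600 bases had -0.29, and the 22 longer ones -0.21. Other tested protein-coding genes in the same length ranges had medians of -0.25 (128 genes), -0.21 (418), -0.11 (833) and -0.04 (3507). The order was the same, and without a length correction the families lay lower in each range. Of those other genes 46.1%, 42.1%, 30.6% and 20.1% were lower, against 6 of 6, 19 of 19, 28 of 30 and 19 of 22 families. After length and GC correction the family medians were -0.647, -0.208, -0.020 and 0.019. Those of the other genes were then -0.052, -0.007, 0.013 and 0.016, so the longest families no longer lay lower. Across the 77 families, which share libraries and scaling, Spearman's rho between coding length and log2 fold change was 0.76, and 0.64 after the principal transcript correction. The length relation was described after the values were seen. Rps20 and Rps15a were corrected by a principal transcript of 3706 and 5130 bases against a coding length of 357 and 390, and stood at -0.62 and -0.38 after the correction.

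**Figure D4:**
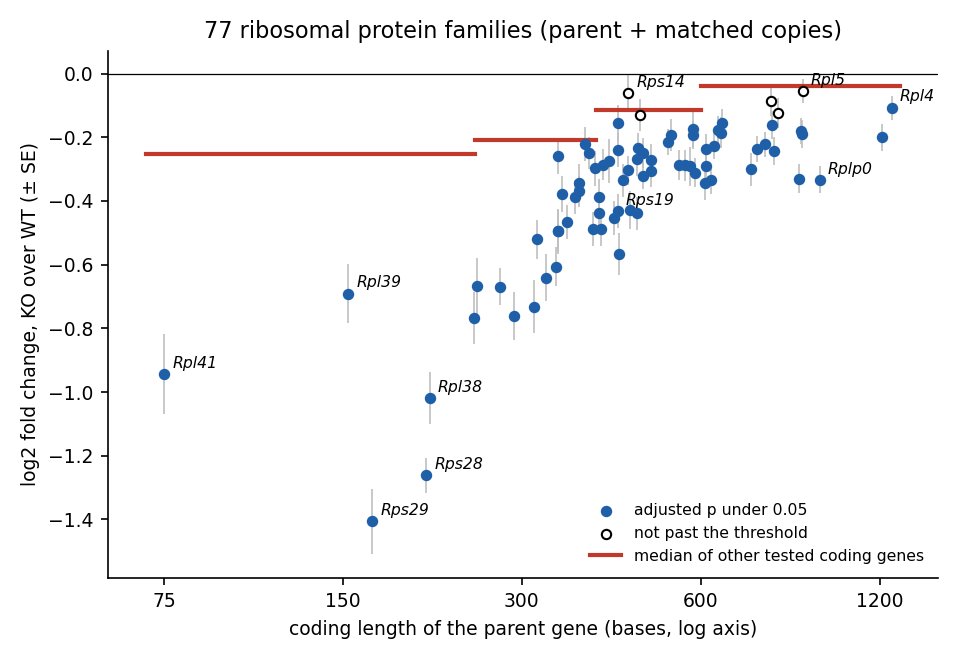
Log2 fold change of each family, KO over WT, with its SE (y axis) against the coding length of the parent in bases (log x axis), with red bars at the median of other tested coding genes in each length range. Rps29, Rps28, Rpl38 and Rpl41 lie lowest, at coding lengths from 75 to 210 bases, and the 5 open points did not pass the threshold.

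In some families the counts moved between parent and copy among libraries of the same genotype. In 9 families the copies' percent differed by over 10 points within a group, a limit set after the values were seen. Rpl7a had 8953, 20009 and 7671 counts in KO while its copy Rpl7a-ps11 had 8605, 5968 and 10287, so KO library 2 was high on the parent and low on the copy. The family sum was 518, 520.0 and 495 CPM in those libraries, and the SD of log2 values in KO was 0.736 for the parent and 0.040 for the family. Rpl7a and Rpl7a-ps11 differ at 2 of 798 coding bases, A186G and A747C. Rps27 had 4217, 2018 and 3769 counts in WT and its retrocopy Rps27rt, with 0 differences over 252 coding bases, had 1111, 2541 and 919. Rps27a-ps2 took 6008 counts in WT library 1 and 2056 and 1371 in the others. Rpl38-ps2, with 0 differences over 210 coding bases, had 511, 907 and 261 counts in KO, highest where Rpl38 was lowest. Summing lowered the standard error in 63 of the 77 families, and the largest family SD in a group was 0.366, for Rpl41 in KO.

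**Figure D5:**
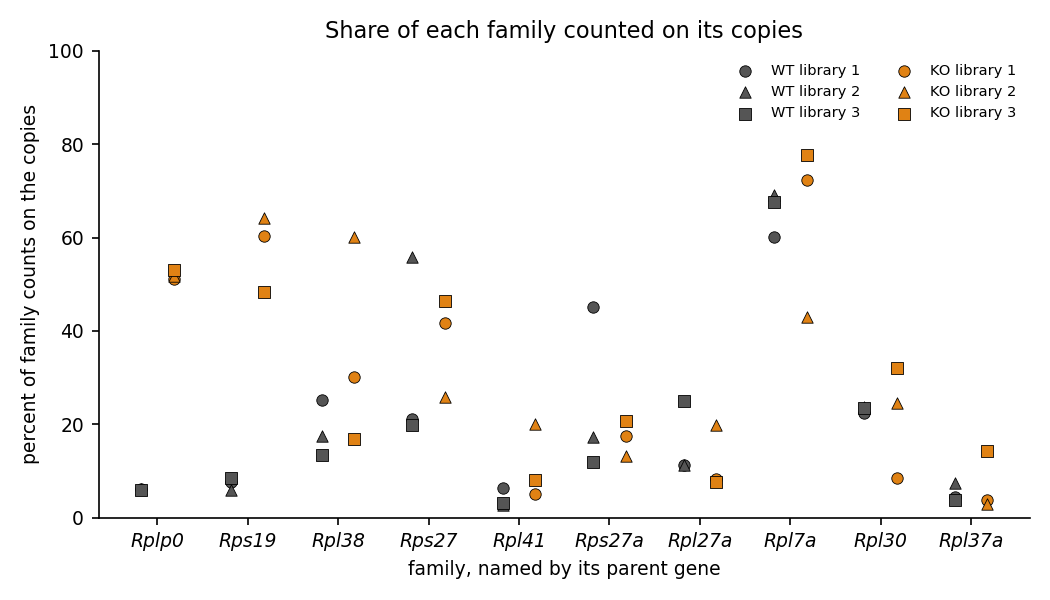
Percent of each family's counts that lie on its copies (y axis, 0 to 100) in each library, for Rplp0 and the 9 families with a range of over 10 points within a genotype. For Rplp0 and Rps19 the genotypes are apart, at most 8.45% in WT and at least 48.4% in KO, while for the other 8 families they overlap.

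Levels between genes were compared as family CPM per kilobase of principal transcript, a unit in which the 77 families had a median of 389 in WT, and their order depended on the length used. Rpl10 stood highest at 968 ± 47 (SD, n = 3) and Rplp0 next at 959 ± 40, a difference within their spread, followed by Rps2 at 871 ± 46. In KO the same 3 stood at 857 ± 14, 762 ± 23 and 694 ± 16. Rps20 and Rps15a were lowest, at 39.4 and 42.3 in WT, and both have the long principal transcripts given above. Per kilobase of coding sequence Rpl41 was highest in WT, at 3614 CPM, followed by Rplp0 at 1369, Rpsa at 1217, Rps24 at 1210 and Rpl10 at 1204, and Rpl36 and Rps21 were lowest, at 215 and 237. By FPKM of the single gene, Rplp0, Rps3a1, Rplp1 and Rps15 were highest, and Rpl29, Rpl35a, Rpl21 and Rps19 lowest. The copies held 99.0% of family counts for Rpl29, 89.0% for Rpl35a and 90.4% for Rpl21 in WT, so the low values of these parents are uncertain. Rpl29 had 1.87, 1.72 and 1.73 FPKM in WT and 1.67, 1.62 and 2.10 in KO and did not pass the threshold. Its family fell with a log2 fold change of -0.32 (edgeR, adjusted p = 9.45e-05), led by Gm8210 with 5973 to 6319 counts in WT. Rpl35a had 4.51, 3.13 and 2.52 FPKM in WT and 2.67, 1.35 and 1.45 FPKM in KO, with overlap. Its call (edgeR, adjusted p = 0.0131) ended without WT library 1 (0.0650) or KO library 3 (0.0642). It also ended with no filter on low values (0.0887) and after the principal transcript correction (log2 fold change -0.52, adjusted p = 0.125). Rps15 and Rps3a1, at 447 ± 27 and 517 ± 22 FPKM in WT macrophages and 393 ± 15 and 487 ± 12 FPKM in KO macrophages, fell by 0.24 and 0.14 on the log2 scale, and were higher after the principal transcript correction (log2 fold change 0.18 and 0.13, adjusted p = 0.00299 and 0.00734). The fall of Rps3a1 (adjusted p = 0.0242) also ended in limma (0.159) and without WT library 1 (0.0700) or KO library 2 (0.0735).

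Most tested named pseudogenes were lower in KO as well. Of the 96 tested, 66 were lower (19.4% of all tested genes) and 1, Rps19-ps6, was higher, with a median log2 fold change of -0.64. Without KO library 3, Rps24-ps3 was higher as well (log2 fold change 0.65, edgeR, adjusted p = 0.0492, against 0.27 and adjusted p = 0.585 with all libraries). Among the other tested pseudogenes of the table, 40.8% of 721 were lower and 3.19% higher, with a median of -0.34. With the principal transcript correction 30 named pseudogenes were lower and 12 higher (14.4% and 16.4% of all tested genes), with a median of -0.22, and of the other 721 pseudogenes 24.1% were lower and 10.1% higher, with a median of -0.05. In 67 of the 96 the log2 fold change lay below that of the parent, and the median difference from the parent over the 96 was -0.23. Of the tested pseudogenes 88 had at least 98% identity to their parent, and 58 of these fell. All 8 with a lower identity fell, but their median level in FPKM was also below that of the 88. The split by identity was thus a split by level too, and whether identity bears on the fall was not tested. Among the largest falls were those of Rpl7a-ps10, from 1.68, 1.56 and 2.67 FPKM to 0.548, 0.167 and 0.294 (5.98-fold, edgeR, adjusted p = 0.000317), Rpl36-ps2 (4.74-fold), Rpl18-ps1 (4.63-fold) and Rpl27a-ps4 (4.43-fold). These 4 had means of at most 7.42 FPKM in WT. In KO the means of Rpl7a-ps10, Rpl36-ps2 and Rpl18-ps1 were 0.336, 0.604 and 0.547 FPKM. They passed the limit of 1 FPKM only through WT, so the sizes of their falls are uncertain. Rpl27a-ps4 had 3.80, 4.97 and 13.5 FPKM in WT, and without WT library 3, its highest, the log2 fold change went from -2.15 to -1.39. Its call ended with no filter on low values (edgeR, adjusted p = 0.0520).

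The 217 named pseudogenes took 0.230%, 0.206% and 0.206% of counts in WT and 0.175%, 0.166% and 0.176% in KO, without overlap (exact permutation test, p = 0.10). Against the parents that have such copies, their percent did not differ beyond its spread: 11.7% ± 0.2 in WT and 11.8% ± 0.3 in KO (exact permutation test, p = 0.50). This percent counts Rplp0 but not its rising unnamed copies, and it counts Rps19-ps6 among the pseudogenes. It was not computed without these families. The unnamed copies took 0.196% ± 0.003 in WT and 0.195% ± 0.007 in KO (exact permutation test, p = 0.90). Without the 3 rising copies of Rplp0 they took 0.189% ± 0.003 in WT and 0.143% ± 0.006 in KO. Those copies were left out because they rose in these same data, so the remainder is described and not tested. Parents with most named copies were Rps12 with 18, Rpl31 with 14, Rpl21 with 13 and Rps2 and Rpsa with 10 each. Of the tested copies, 3 of 4 fell for Rps12, 1 of 2 for Rpl31 and 1 of 3 for Rpl21. For both Rps2 and Rpsa 4 of 4 fell, and 0 rose for any of these parents. Among all tested genes 19.4% were lower and 20.3% higher, and among the other tested pseudogenes 40.8% and 3.19%. These counts per parent are without a length correction. The parents Rps12, Rpl31 and Rps2 fell by 0.58, 0.36 and 0.26 on the log2 scale, the last 2 standing at 0.01 after the principal transcript correction. The widest spread within a group was that of Rpl30-ps8, at 0.335, 3.20 and 4.21 FPKM in KO, and Rpl30-ps10, at 2.00, 7.02 and 11.6 FPKM in KO, with KO library 1 lowest in both and neither past the threshold.

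Paralogs and retrocopies shared the direction of the standard genes. Of the 12 tested, 10 fell and 0 rose, with a median log2 fold change of -0.51, against 19.4% lower and 20.3% higher among all tested genes. With the principal transcript correction 6 fell and 0 rose, with a median of -0.18, against 14.4% and 16.4%. Rps27l, a paralog of Rps27 known as a p53 target, had 44.4, 41.0 and 42.2 FPKM in WT and 31.2, 26.4 and 31.7 FPKM in KO (log2 fold change -0.57 ± 0.08, edgeR, adjusted p = 0.000235), a call that ended after the principal transcript correction (-0.18, adjusted p = 0.0595). Rps27rt stood at 47.8, 112 and 41.0 FPKM in WT and 67.5, 32.3 and 61.0 FPKM in KO, with full overlap, and was not past the threshold. Rps27 itself fell by 0.82 on the log2 scale with overlap between the groups, and its call ended in limma (adjusted p = 0.0587) and after the principal transcript correction (0.263). Rpl36al, a retrocopy of Rpl36a, fell from 50.2 ± 1.8 to 38.5 ± 0.4 FPKM, and Rpl36a from 50.5 ± 2.5 to 37.7 ± 3.1 FPKM, the first standing at 0.02 on the log2 scale after the principal transcript correction and neither then past the threshold (adjusted p = 0.713 and 0.322). Rpl39l and Rpl39, which lines the exit tunnel, fell by 0.45 and 0.68 on the log2 scale. The call of Rpl39l (edgeR, adjusted p = 0.0219) ended after the principal transcript correction (-0.18, adjusted p = 0.338) and without WT library 2 (0.0530), WT library 3 (0.0745), KO library 2 (0.0624) or KO library 3 (0.0702). Rpl22l1 and Rpl22 fell by 0.42 and 0.21, and Rpl22 was higher after the principal transcript correction (log2 fold change 0.21, adjusted p = 0.00384). The call of Rpl22l1 (adjusted p = 0.0380) ended in limma (0.0951), with no filter on low values (0.158), after the principal transcript correction (-0.15, adjusted p = 0.398) and without WT library 1 (0.144), WT library 2 (0.0795), KO library 1 (0.0880) or KO library 2 (0.118). That of Rpl22 ended in limma (0.0600). Rpl7l1, a factor of large subunit assembly, fell by 0.18, and Rpl7 did not pass (log2 fold change -0.11, adjusted p = 0.0760). Rps4l, a copy of Rps4x, fell 1.99-fold while Rps4x had 332 ± 17 FPKM in WT against 328 ± 8 FPKM in KO. Rps3a2 fell by 0.79, and Rps3a3 had a log2 fold change of -0.41 that did not pass. Rpl6l, Rpl37rt and Rpl32l fell by 0.61, 0.82 and 2.01 on the log2 scale. Rpl32l had means of 2.39 FPKM in WT and 0.601 FPKM in KO, and passed the limit of 1 FPKM only through WT. Rpl3, whose muscle paralog Rpl3l had 6 counts in 1 KO library and 0 elsewhere, fell by 0.16 on the log2 scale, stood at 0.04 after the principal transcript correction, and its call ended in limma (adjusted p = 0.114) and without WT library 1, WT library 2 or KO library 3. Rps23rg1 had 0 to 30 counts per library and was not tested.

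Of the members within 10 Mb of Pebp1 on chromosome 5, Rplp0 was nearest, at 1.72 Mb. Rpl37rt lay at 2.17 Mb, Rpl6 at 3.92 Mb, Rpl35a-ps6 at 5.97 Mb, Rpl31-ps6 at 6.18 Mb and Rpl5 at 9.37 Mb. Rpl6 fell by 0.14 on the log2 scale with overlap between the groups (edgeR, adjusted p = 0.0295), a call that ended without WT library 1 or any 1 KO library and a value that was 0.07 after the principal transcript correction. Rpl35a-ps6 had 63.7, 56.8 and 61.5 FPKM in WT and 47.2, 40.5 and 45.4 FPKM in KO (1.42-fold lower), and was not past the threshold after that correction (adjusted p = 0.592). Rpl5 had 104 ± 5 FPKM in WT against 105 ± 2 FPKM in KO, and Rpl31-ps6 had 0 counts in WT and at most 6 in KO.

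Other parts of the ribosome moved with the standard genes. Fau, whose product is a ribosomal protein fused to a ubiquitin-like domain, and Rack1, a scaffold on the small subunit, fell by 0.30 and 0.27 on the log2 scale. After the principal transcript correction neither passed the threshold. Of 15 other mRNAs known for a terminal oligopyrimidine start, 8 fell and 3 rose, with a median log2 fold change of -0.12, against 19.4% lower and 20.3% higher among all tested genes. After the principal transcript correction 5 fell and 3 rose, against 14.4% and 16.4%. Among them Eif3f, a subunit of an initiation factor, rose by 0.45 ± 0.06 (edgeR, adjusted p = 0.000211), and Tpt1 fell by 0.36 ± 0.05 (adjusted p = 0.000306).

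The pyrimidine run at the start of the mRNA was looked for in the RefSeq promoters (GRCm38.p6), which held 57 of the 77 genes. On the transcribed strand, a C followed by at least 6 bases that are each C or T lay within 20 bases of the start in 50.9% of the 57, against 18.6% of 27025 genes. At the start itself, a C followed by 4 such bases was found in 21.1% of the 57, against 2.49% of all genes. The median family log2 fold change was -0.30 for the 29 genes where the run was found and -0.30 for the 28 where it was not. Only bases near the annotated start were read, and the starts used in these cells were not measured. A run not found there may therefore be present in the mRNA, and its part in the fall was not tested. Of these genes, 4 are printed from 15 bases before the annotated start over 30 bases, with the run in capitals. The run was found in Rpl38 and Rps21, and not found in Rps28, which also fell far, or in Rps4x.
Rpl38 (chr11:114668565-114668594, plus strand): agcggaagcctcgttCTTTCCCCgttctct
Rps21 (chr2:180257364-180257393, plus strand): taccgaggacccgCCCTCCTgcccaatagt
Rps28 (chr17:33824548-33824577, minus strand): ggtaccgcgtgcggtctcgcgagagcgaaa
Rps4x (chrX:102189377-102189406, minus strand): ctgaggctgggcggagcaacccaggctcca
Rpl38 and Rps21 fell by 1.02 and 0.77 as families, Rps28 by 1.26, and Rps4x had -0.09 and did not pass. The run was also found in Rpl39, Rpl4 and Rpl5, at -0.69, -0.11 and -0.05 as families. It was not found in Rpl41, Rpl37, Rps19 or Rplp0, at -0.94, -0.76, -0.43 and -0.33.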

How the data were processed

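RNA was measured in 6 libraries, 3 per genotype, by strand-marked poly(A) sequencing, per the labels' protocols. The authors deposited FPKM and an estimated count per gene and library. Cutadapt 1.9, HISAT2 2.0.4 and StringTie 1.3.4d are named in the submitters' processing notes. The genome build, and whether counting used the strand, were not given in the sources used here. Low estimated counts clustered at multiples of 4 (4 was found 5769 times and 5 2041 times), so 1 fragment gave about 4 counts. Gene coordinates are those of the deposited table, and 264 of 309 members had the same ones in GENCODE M21 (GRCm38).

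KO was compared with WT by edgeR 4.0.16 (R 4.3.3, quasi-likelihood test, TMM scaling) on the estimated counts of the 11636 genes that averaged 1 FPKM or more. All tests were two-sided, with Benjamini-Hochberg adjustment over every tested gene and a threshold of 0.05. Standard errors were worked back from the log2 fold change and the F statistic. The procedure was checked on simulated data. Copies were matched to parents with minimap2 2.31 (at least 50% cover and 90% identity) and aligned with edlib 1.3.9.post1. Length and GC trends were fitted per library by loess (span 0.3) and entered as offsets. Named genes are the stalk genes and Rpsa, the 4 highest and 4 lowest by FPKM, the 6 largest changes of standard genes and 5 of pseudogenes in each direction without overlap, the 5 parents with most copies, tested paralogs, members within 10 Mb of Pebp1 and the 2 widest spreads. Gm pseudogenes, other families and start sequences were chosen after their values were seen, as were Rpl6l, Rpl32l, Rpl37rt and Rps23rg1 as retrocopies. Members and lists were chosen with earlier results of these data known. Replicate numbers did not pair the libraries. A few genes that the rule names are not reported here.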

Additional observations from a re-analysis of the deposited data

How the results depend on the processing

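Counts of calls kept within 1.5 times of the reported ones under limma on log2(FPKM + 1) and log2(FPKM + 0.1), DESeq2 1.42.0, median-ratio scaling, library totals, TMM without the members, no filter and counts divided by 4. Lower standard genes ranged from 59 to 66 and lower named pseudogenes from 59 to 67 with 1 library left out, and higher ones were 0 throughout and from 1 to 2. The fall in the share of standard genes ranged from -0.496 to -0.408 percentage points, that of named pseudogenes from -0.0455 to -0.0334, and the pseudogene percent of parent plus pseudogene from 0.0409 to 0.322.

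The length and GC corrections changed the calls. With the longest transcript, 28 standard genes were lower and 11 higher, and 30 and 16 named pseudogenes. With the replicate block added, these were 29 and 11, and 27 and 13. With the principal transcript, they were 21 and 21, and 30 and 12, and for families 29 and 8. A mean of at least 5 FPKM left 40 lower named pseudogenes of fewer tested. By FPKM in place of counts the shares differed by -0.75 and -0.177 percentage points and the pseudogene percent by 0.629, on another scale of levels.

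Among the 48 genes named from the fit, 26 values past the threshold with or without the alternative changed direction, all under a length and GC correction. A further 25 values, past it in neither form, changed sign for Rpl5, Rpl7, Rpl7a, Rpl29 and Rps27rt, some in limma or with 1 library left out, such as Rps27rt at 0.22 without WT library 2. With the longest transcript Rps15 stood at 0.0861, Rps3a1 at 0.162, Rps2 at 0.0232, Rps4x at 0.241 and Rpl6 at 0.113 on the log2 scale, and with the replicate block added at 0.0858, 0.162, 0.0235, 0.241 and 0.114. With the principal transcript Rpsa stood at 0.00732, Rpl31 at 0.00982, Rps2 at 0.0146, Rpl36al at 0.0201, Rpl3 at 0.0408, Rpl6 at 0.0725, Rps3a1 at 0.130, Rps15 at 0.176, Rps4x at 0.205 and Rpl22 at 0.205. As families with that correction Rpl6 stood at 0.0102, Rpl21 at 0.0168, Rps15 at 0.0601, Rps3a1 at 0.0816, Rpl22 at 0.0973 and Rps4x at 0.158. Without KO library 2, Rpl7a fell (log2 fold change -0.71, edgeR, adjusted p = 0.00162).

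Libraries of the same number had correlations of 0.02, 0.19 and -0.04, so the number is shared and nothing else is known to pair them. With the number as a replicate block, 70 standard genes were lower and 0 higher, and 68 named pseudogenes lower and 1 higher.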
